A study of Mus musculus with 5 samples.

Results

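The protocadherins are the largest subfamily of the cadherins, cell surface proteins that bind their own kind on neighbouring membranes. All genes whose symbol starts with Pcdh followed by a, b, g or a digit were taken, without pseudogene symbols that contain -ps. This gave 70 genes of the 55411 features counted: 14 of the alpha cluster, 22 of the beta cluster, 22 of the gamma cluster and 12 non-clustered genes. They were followed in 5 bulk RNA-seq libraries of olfactory sensory neurons (OSNs) that transcribe Olfr151, an odorant receptor gene also called M71. The neurons were sorted by GFP fluorescence from the main olfactory epithelium of 7-week-old male mice homozygous for Olfr151tm26Mom, an allele in which the receptor gene is followed by an IRES and a tau-GFP reporter, so that all groups carried the reporter. Each animal had been exposed for 5 h to 5% acetophenone, an agonist of this receptor, diluted in DMSO (exposed pools 1 and 3) or to DMSO alone (control pools 1, 2 and 3). A library held the cells of 4 mice, given as 200 cells in one label and as 400 in the protocol. The paper's methods give 200 per pool for Olfr151 neurons and 400 for those of its other reporter line. The library of exposed pool 2 is not analysed here. Each value is thus an average over many neurons that share 1 receptor, and fewer cells with a transcript cannot be told apart from less RNA per cell.

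In the clustered genes, each alpha or gamma isoform joins 1 variable exon, which has its own promoter and encodes the extracellular and transmembrane parts, to constant exons that all isoforms of that cluster share. The beta genes have a single large exon each and no constant part. Neurons choose among most of these promoters at random, with CTCF and cohesin looping an enhancer to the chosen promoter, and the combination gives a neuron a surface identity that lets its own processes avoid each other. The non-clustered protocadherins are encoded apart from the clusters, have their own cytoplasmic parts and act in adhesion, axon growth and synapse refinement. Olfactory axons need protocadherins to spread and to converge in the olfactory bulb.

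The libraries held 42780403 to 49527380 counts, of which the protocadherins took 0.135 to 0.310%. Values are given as counts, or as CPM, counts scaled to 1000000 per library with TMM factors, and for comparisons between genes as CPM per kilobase of the exon bases that no other gene shares, which are the bases on which a read could be counted to that gene. A count of 3 corresponded to 0.0606 to 0.0701 CPM, and this was taken as the limit of detection. The 8 markers of mature OSNs summed to 57349 to 61100 CPM in the control and 50040 to 50692 CPM in the exposed libraries, and 2 of the 8, the channel subunits Cnga2 and Cnga4, were called lower in the exposed libraries. The 4 markers of immature OSNs summed to 161 to 204 CPM and 315 to 451 CPM, and Gap43 was called higher. The 8 myeloid markers summed to 14.9 to 121 CPM in the control and 65.8 to 144 CPM in the exposed libraries, with Fcer1g called higher, and the 4 sustentacular cell markers to 60.6 to 227 CPM and 91.2 to 231 CPM. The sums in the control and in the exposed libraries were 0.504 to 2.76 and 0.0464 to 3.14 CPM for 5 basal cell markers, 0.0687 to 29.3 and 3.05 to 6.04 CPM for 4 microvillar cell markers, and 0.474 to 4.66 and 1.31 to 3.71 CPM for 4 ensheathing glia markers, of which Frzb had none. They were 4.66 to 13.0 and 7.89 to 11.6 CPM for 4 endothelial and mural markers, with Kdr at 0 in all libraries, and 11.9 to 107 and 4.43 to 17.2 CPM for 4 fibroblast markers. The part of these differences in the results below was not tested.

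Pcdh10 was the protocadherin that changed with exposure. Pcdh10, a delta-2 protocadherin known as a target of MEF2 factors that takes part in activity-dependent synapse elimination, lies on chromosome 3 (GRCm38, 45378398 to 45435623, plus strand). The control libraries gave 2642, 4293 and 3072 counts, and the exposed libraries 64738 and 56090. On the TMM scale these were 60.5, 86.5 and 66.2 CPM against 1503 and 1336 CPM. Both exposed libraries stood far above all 3 control libraries, and the spread within each group was small beside the gap between them. The mean was 71.1 ± 13.7 CPM (SD, n = 3) in the control and 1420 ± 118 CPM (SD, n = 2) in the exposed libraries, which is a 20.0-fold difference. The log2 fold change was 4.32 ± 0.19 (SE), with an adjusted p of 4.63e-04 by edgeR's quasi-likelihood test.

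Among the 10036 genes tested, Pcdh10 had the 45th highest log2 fold change and the second lowest p-value. Of all genes tested, 3.42% were called higher and 1.85% lower with calls made at an adjusted p under 0.1 and a log2 fold change beyond 0.5 in either direction. Counted over all genes by CPM, Pcdh10 held rank 3362, 2390 and 2974 in the control libraries and rank 64 and 67 in the exposed ones. Its change kept its sign and its call in every alternative fit tried, with log2 fold changes between 4.02 and 4.49. Of its 15888 exon bases, 154 overlap the non-coding gene 1700027H10Rik, which had at most 5 counts in any library. The levels of the immature OSN markers, which also stood higher in both exposed libraries, and of the myeloid markers are given above.

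The promoter of Pcdh10 is shown because this was the member called. The window runs from 250 bases before to 50 bases after the start that RefSeq annotates, at chr3:45378148-45378447 on the plus strand of GRCm38.p6, and capitals mark the matches to TGACG or its reverse complement CGTCA, the 5-letter core of the cyclic AMP response element.
Pcdh10: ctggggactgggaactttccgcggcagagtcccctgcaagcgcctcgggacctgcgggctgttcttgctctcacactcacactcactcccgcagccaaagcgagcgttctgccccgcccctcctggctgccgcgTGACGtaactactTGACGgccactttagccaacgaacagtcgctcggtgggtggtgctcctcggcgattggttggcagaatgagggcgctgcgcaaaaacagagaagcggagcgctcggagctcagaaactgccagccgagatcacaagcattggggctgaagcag
The 2 matches begin 116 and 103 bases before the annotated start. Such a core, on either strand, was found in 20.8% of the 32851 promoters in the table. The full element TGACGTCA, which contains the core on both strands, had no match in this window and was found in 1.79% of all promoters. The AP-1 site, searched as TGACTCA and TGAGTCA, had none either and was found in 5.2%.

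Promoter windows were at hand for 9 non-clustered members, which gave 10 windows because Pcdh9 has a pair of starts. The core lay in 3 of these windows, that of Pcdh10 and both of Pcdh9, whose matches overlap in position. None of the 10 held a full element or an AP-1 site. The letters CGCT, the core of the element that most clustered promoters carry, were in all 10 windows and in 61.8% of all promoters. A match describes letters in a window and not a bound site.

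**Figure D1:**
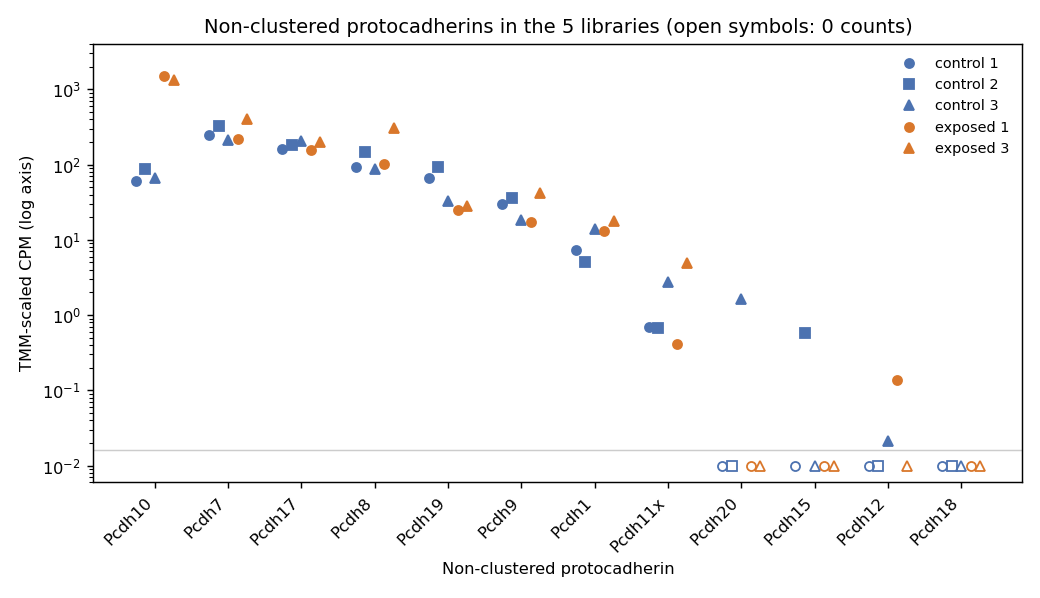
Levels of the 12 non-clustered protocadherins in each of the 5 libraries, as TMM-scaled CPM on a log axis, with control libraries in blue and exposed libraries in orange, 1 symbol per pool, and libraries without a count drawn as open symbols below the grey line. Pcdh10 stands at 60.5 to 86.5 CPM in the control and at 1336 to 1503 CPM in the exposed libraries, and Pcdh19 is the only other tested gene of this panel whose groups do not overlap.

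Pcdh19 had the next lowest p-value among the protocadherins. It is a delta-2 protocadherin on the X chromosome (133582860 to 133688987, minus strand) that forms a complex with N-cadherin and underlies a female-limited epilepsy in humans. Its counts were 2927, 4643 and 1529 in the control and 1075 and 1185 in the exposed libraries, or 67.0, 93.6 and 32.9 CPM against 25.0 and 28.2 CPM. Both exposed libraries lay below all 3 controls, but control pool 3 stood close to them, nearer than to the other controls. The log2 fold change of -1.28 ± 0.44 (SE) did not pass the test (edgeR, adjusted p = 0.19). With DESeq2 and apeglm shrinkage, where 6.69% of all genes tested were called higher and 7.12% lower, it was called lower (log2 fold change -0.91, adjusted p = 0.0479). It was also called lower by edgeR without control pool 3 (-1.57, adjusted p = 0.0415). Leaving out the control nearest to the exposed libraries widens the gap by itself. That fit called 436 of 10260 genes lower, beside 186 of 10036 with all 5 libraries.

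The other delta-2 genes gave no call. Pcdh8, an activity-induced protocadherin known as Arcadlin that internalizes N-cadherin, had 94.2, 145 and 88.0 CPM in the control and 100 and 308 CPM in the exposed libraries. Only exposed pool 3 stood out, and exposed pool 1 lay within the control range. The log2 fold change was 0.90 ± 0.47 (SE, edgeR, adjusted p = 0.36) and became -0.14 without exposed pool 3. Pcdh17, which acts in axon extension and at synapses, had 160, 184 and 209 CPM in the control and 158 and 201 CPM in the exposed libraries (edgeR, adjusted p = 0.94). Pcdh18 had no count in any library.

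Among the delta-1 genes, Pcdh7 had the highest CPM of all protocadherins in control pools 1 and 2 and stood below Pcdhb1 in control pool 3, with 249, 323 and 212 CPM against 220 and 407 CPM in the exposed ones. Its groups overlapped, and its log2 fold change of 0.26 ± 0.30 (SE, edgeR, adjusted p = 0.68) turned to -0.27 without exposed pool 3. Of its exon bases, 78.9% are shared with no other gene, the rest lying over 4932441J04Rik, and strand was not used in counting. Pcdh9 had 30.2, 36.1 and 18.6 CPM in the control and 17.1 and 41.5 CPM in the exposed libraries (edgeR, adjusted p = 0.97), so that the exposed libraries enclosed the range of the controls. Pcdh1 had 7.26, 5.06 and 14.1 CPM against 13.2 and 17.8 CPM, with a log2 fold change of 0.82 ± 0.52 (SE, edgeR, adjusted p = 0.44). Pcdh11x, the X-linked delta-1 gene, was not tested, with 30, 33 and 126 counts in the control and 18 and 205 in the exposed libraries.

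The remaining non-clustered genes had counts in 1 or 2 libraries only. Pcdh15, a part of the tip link of hair cells, had 29 counts in control pool 2 and none elsewhere. Pcdh20 had 77 counts in control pool 3 and none elsewhere. Pcdh12, the vascular endothelial protocadherin, had 1 count in control pool 3 and 6 in exposed pool 1. Of the endothelial and mural markers, Cldn5 had 5 and 53 counts in these libraries, Pecam1 had 332 and 230, and Kdr had none.

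**Figure D2:**
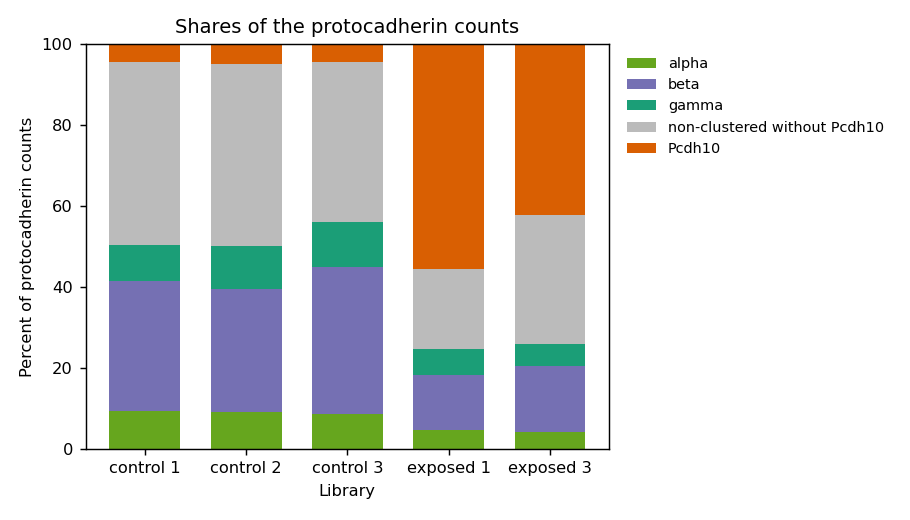
Share of the protocadherin counts held by the alpha, beta and gamma clusters, by Pcdh10 and by the other non-clustered genes, 1 stacked bar per library, in percent. Pcdh10 takes 4.48 to 4.93% in the 3 control libraries, 55.6% in exposed pool 1 and 42.3% in exposed pool 3.

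The rise of Pcdh10 lowered the share of the protocadherin counts left to the other members. The 70 genes together had 1349, 1756 and 1468 CPM in the control and 2705 and 3162 CPM in the exposed libraries. Without Pcdh10 the sums were 1288, 1670 and 1402 CPM against 1202 and 1825 CPM, which overlapped. Pcdh10 alone held 4.48, 4.93 and 4.51% of the protocadherin counts in the controls, and 55.6 and 42.3% in the exposed libraries. The clustered genes held 50.4, 50.2 and 56.1% of the counts in the control and 24.7 and 25.8% in the exposed libraries. Their summed level was 680, 882 and 823 CPM in the control and 668 and 817 CPM in the exposed libraries. With Pcdh10 left out, their share was 52.8, 52.8 and 58.7% against 55.6 and 44.8%. The exact 95% binomial intervals of these shares reached at most 0.429 percentage points to either side and cover counting error only. Those of control pools 1 and 2 overlapped for the clustered share, and those of the exposed and the control libraries did not. With Pcdh10 left out, the clustered share of exposed pool 1 lay between those of the controls. Per kilobase of unshared exon, where the long non-clustered transcripts weigh less, the clustered genes held 74.7, 74.4 and 79.4% in the control and 59.9 and 55.2% in the exposed libraries.

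Levels per kilobase put a beta gene first. In the control libraries the order began with Pcdhb1 at 99.2 ± 12.5 CPM per kilobase (SD, n = 3), followed by Pcdh7 at 31.2 ± 6.7, Pcdh8 at 26.6 ± 7.6, Pcdh17 at 14.2 ± 1.9 and Pcdhb9 at 11.2 ± 2.5. Pcdhb1 stood above Pcdh7 in every control library, whereas the ranges of Pcdh7 and Pcdh8, and those of Pcdh17 and Pcdhb9, overlapped. Pcdh10, at 4.52 ± 0.87 CPM per kilobase, held rank 21, 22 and 21 of the protocadherins in the 3 control libraries. In the exposed libraries it reached 90.2 ± 7.5 CPM per kilobase (SD, n = 2), the highest rank in pool 1 and the second in pool 3, beside 75.9 and 118 CPM per kilobase for Pcdhb1.

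Pcdhb1 made up the bulk of the beta cluster. The alpha, beta and gamma clusters lie one after the other on chromosome 18 of GRCm38. It is the first gene of that cluster, and its promoter, like those of some C-type isoforms, lacks the conserved element found before most clustered exons. It had 220, 281 and 270 CPM in the control and 196 and 305 CPM in the exposed libraries, and the exposed values lay on either side of the control range (edgeR, adjusted p = 0.96). It held 50.9, 52.5 and 50.7% of the beta counts in the controls and 52.7 and 58.7% in the exposed libraries. The beta gene with the next highest count was Pcdhb16 in control pools 1 and 3 and exposed pool 3, and Pcdhb9 in control pool 2 and exposed pool 1, each with at most 1934 counts beside the 8455 to 13916 of Pcdhb1. No other cluster had such a leader. In the alpha cluster the highest isoform held 14.5 to 24.6% of the counts, and in the gamma cluster 9.66 to 17.9%.

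By count, the leading alpha and gamma isoforms changed from library to library. The highest alpha count belonged to the variable exon gene ENSMUSG00000007440 in control pool 1, to Pcdha2 in control pool 2 and to Pcdha9 in control pool 3 and both exposed pools. The symbol Pcdha11 stands for a pair of gene IDs in the annotation, this one and ENSMUSG00000102206, so both are named by their IDs. In the gamma cluster the highest count belonged to Pcdhgb6 in control pool 1 and exposed pool 1, to Pcdhga3 in control pool 2, and to Pcdhga5 in control pool 3 and exposed pool 3. The effective number of isoforms, the inverse of the summed squared shares, was 6.83 to 9.27 for alpha, 10.3 to 14.6 for gamma and 2.76 to 3.56 for beta over the 5 libraries. Exposed pool 1 had the lowest value for alpha and exposed pool 3 the lowest for beta, while the highest value for gamma was that of exposed pool 1.

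The share of the exon bases that could yield a count sets what these levels mean. A median of 46.4% of an alpha gene's exon bases and 54.7% of a gamma gene's were unshared, since reads on the constant exons belong to several genes and were left out of the counts, so the values of these clusters are mostly those of the variable exons. For beta genes the median was 100%. Unshared length ranged from 404 bases for Pcdha4 to 3028 for Pcdhac2 in alpha, from 1107 for Pcdhb12 to 8695 for Pcdhb14 in beta, and from 0 for Pcdhga10 to 4614 for Pcdhgb5 in gamma. Pcdhga10 was listed at 0 in every library, and no read could have been counted to it. For Pcdha4, 11 counts came from control pool 2, 6 from control pool 3 and none from the other libraries. Where read-through or antisense models overlie an isoform, as Gm26672 does over Pcdhgb7, Pcdhga11 and Pcdhga12, reads of one cannot be told from those of the other without strand.

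**Figure D3:**
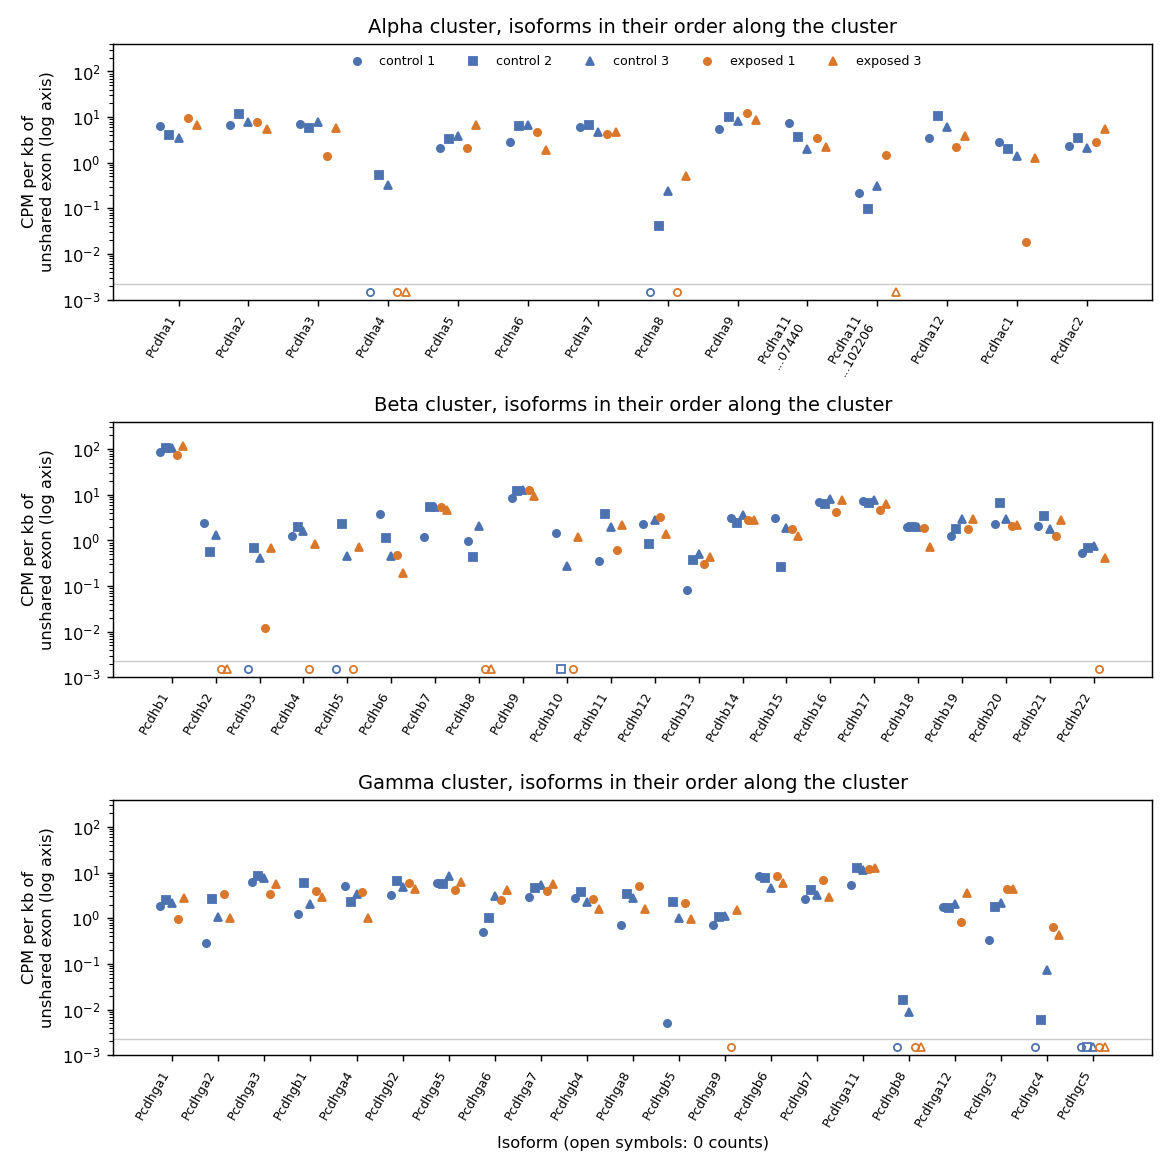
CPM per kilobase of unshared exon, on a log axis, of 57 clustered isoforms in the 5 libraries, in 3 panels for the alpha, beta and gamma clusters with isoforms in their order along each cluster; control libraries are blue, exposed libraries orange, and open symbols mark libraries without a count. Pcdhb1 stands alone at 75.9 to 118 CPM per kilobase, and several beta isoforms have no count in 1 or both exposed libraries.

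Most clustered isoforms were present in these pools of neurons with 1 receptor. With a limit of more than 3 counts, 49, 53 and 55 of the 58 isoforms were detected in the control libraries, and 44 and 51 in the exposed ones. The deepest library was control pool 2, and thinning every library to the total of the shallowest one gave the same 5 numbers. Over the 5 libraries, 41 isoforms were detected in all, 14 in some and 3 in none, the last being Pcdhga10, Pcdhgb8 and Pcdhgc5. Of the 22 beta isoforms, 20, 21 and 22 were detected in the control libraries, 15 in exposed pool 1 and 20 in exposed pool 3. For gamma the numbers were 17, 18 and 19 against 18 and 19, and for alpha 12, 14 and 14 against 11 and 12.

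Several isoforms were well counted in one pool and absent from another. As many as 10 isoforms had over 100 counts in at least 1 library and 3 or fewer in another: Pcdhac1, Pcdhb2, Pcdhb3, Pcdhb4, Pcdhb5, Pcdhb8, Pcdhb10, Pcdhb22, Pcdhgb5 and Pcdhga9. Pcdhgb5, for example, had 1, 515 and 216 counts in the control and 421 and 185 in the exposed libraries, so that a single control library lacked it. Pcdhb10 had 181, 0 and 36 counts in the control and 0 and 143 in the exposed libraries. No non-clustered gene met both limits, though Pcdh20 had 77 counts in control pool 3 and none elsewhere. The share of all genes that met both limits was not determined. The median coefficient of variation over the 3 control libraries was 0.298 for the 40 clustered isoforms tested and 0.287 for the 7 non-clustered genes. The biological coefficient of variation lay above the trend over expression for 35% of the 40 and 57.1% of the 7. Over all genes tested, the values were 0.22 and 24.8%. The coefficients over the control libraries were not matched for level. The median control level was 10.9 CPM for the 40 clustered isoforms and 71.1 CPM for the 7 non-clustered genes.

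Pcdhb2 and Pcdhb8 were the isoforms with counts in every control library and none in either exposed library. The share of all genes with this pattern was not determined, so it cannot be said whether it is unusual. The counts of Pcdhb2 in the controls were 290, 79 and 175. Those of Pcdhb8 were 145, 74 and 330. The control mean of Pcdhb2 was 56.7 times, and that of Pcdhb8 56.3 times, the CPM that 3 counts give in the exposed libraries. As both were picked for their 0 counts, these ratios do not estimate a change. Isoforms also dropped out within a condition, as Pcdhb10 did with 181, 0 and 36 counts in the controls. Neither Pcdhb2 nor Pcdhb8 was among the genes tested, because each fell to 141 counts or fewer in a control library. They are described here because of this pattern, seen in their values, and in the fits with a limit of 10 counts and without control pool 2 they entered through the control libraries alone. Of the 4 alternative fits that included them, 3 called both lower, and the one with filterByExpr called neither (edgeR, adjusted p = 0.12 and 0.129). Over all genes, 174 of 13547 were called lower with the limit of 10 counts and 131 of 26884 with no limit beyond 1 count. The numbers were 64 of 10169 without control pool 2 and 74 of 15544 with filterByExpr. As both isoforms were picked for their 0 counts, these calls cannot test a change.

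Across all members, 47 of 70 were tested, and 1 was called higher and 0 lower by edgeR. By edgeR, 2 had an unadjusted p under 0.05, Pcdh10 and Pcdh19, beside 1922 of the 10036 genes tested. These are also the 2 that DESeq2 called. The 47 were 11 alpha, 13 beta and 16 gamma isoforms and 7 non-clustered genes. Of the 47, 36 had enough counts in both conditions, 5 in the control alone and 6 in the exposed condition alone, so that the last 11 could pass only where they were high and had their direction partly set by the filter. The exposed libraries all lay above the controls in 3 of the 47, beside 20.3% of all genes tested, and all below in 9, beside 19.6%. The median log2 fold change of the 47 was -0.03, and that of all genes tested was also -0.03.

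None of the 40 clustered isoforms tested was called by edgeR, and 0 were called by DESeq2. By edgeR, 0 of them had an unadjusted p under 0.05, beside 1922 of the 10036 genes tested. The log2 fold change was positive for 4 and negative for 7 alpha isoforms (median -0.38), positive for 2 and negative for 11 beta isoforms (median -0.24), and positive for 11 and negative for 5 gamma isoforms (median 0.17). Of the 16 gamma isoforms, the 5 that passed the filter through the exposed libraries alone were positive, the 2 that passed through the controls alone were negative, and the other 9 split into 6 positive and 3 negative. Over all genes tested, 52.0% were negative. Without exposed pool 1 the beta split was nearly even, with 7 isoforms positive and 8 negative of the 15 then tested and a median of -0.16. The gamma median turned to -0.08 without control pool 1 and to -0.10 without exposed pool 1. Scaling by the ERCC spike-ins moved the median of all genes tested to -0.23, and the medians of alpha, beta and gamma to -0.70, -0.34 and -0.21.

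**Figure D4:**
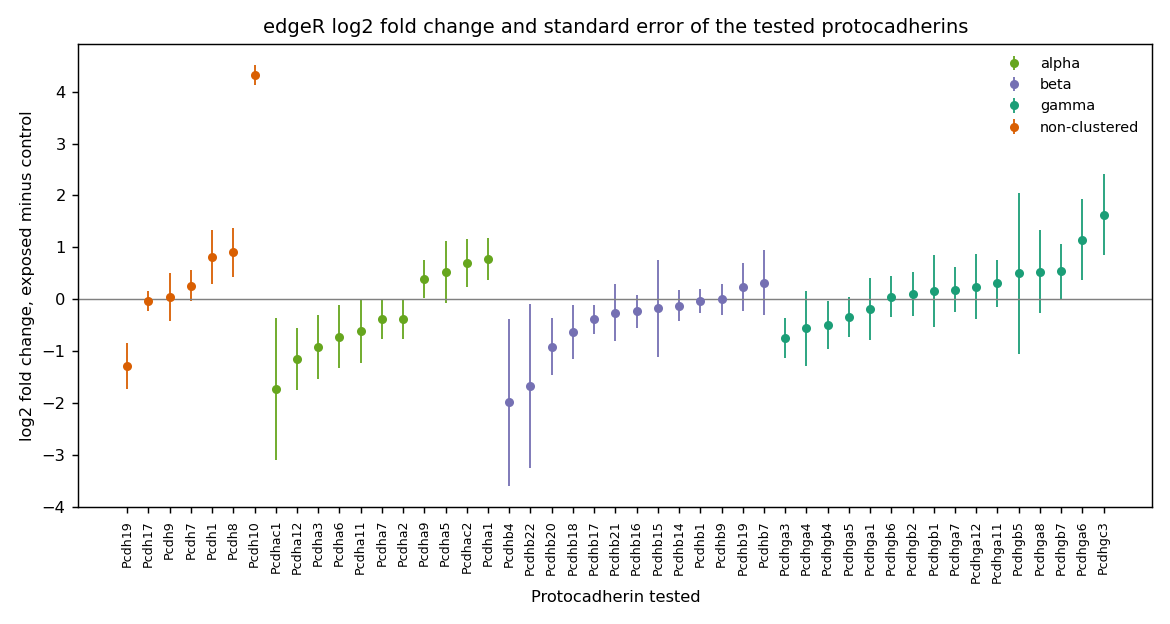
Log2 fold change between exposed and control libraries for the 47 protocadherins tested, with bars of 1 standard error, from edgeR, ordered by size within the non-clustered genes and the alpha, beta and gamma clusters. Pcdh10 stands at 4.32, apart from all others, and the bars are longest where a library has few or no counts.

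Among the clustered isoforms tested, Pcdhgc3 had the lowest adjusted p, but it passed the filter through the exposed libraries alone. It is a C-type gamma isoform that acts in dendrite arborization and inhibits Wnt signalling through Axin1. It had 0.618, 3.23 and 3.88 CPM in the control and 8.06 and 7.91 CPM in the exposed libraries, which lay above all controls. The log2 fold change was 1.63 ± 0.77 (SE, edgeR, adjusted p = 0.31). The C-type isoform Pcdhgc4, which is needed for the survival of cortical interneurons, was not tested and had 0, 1 and 12 counts in the control and 96 and 64 counts in the exposed libraries. Pcdhgc5 had no count in any library.

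The alpha C-types went in opposite directions without passing the test. Pcdhac1 had 7.30, 5.18 and 3.66 CPM in the control libraries and 0.0464 and 3.19 CPM in the exposed ones, the lower of which came from 2 counts. Its log2 fold change was -1.73 ± 1.36 (SE, edgeR, adjusted p = 0.54), and -0.76 without exposed pool 1. Pcdhac2, the isoform that serotonergic neurons need for axon tiling, had 7.07, 10.3 and 6.42 CPM in the control and 8.80 and 16.9 CPM in the exposed libraries, with a log2 fold change of 0.70 ± 0.47 (SE, edgeR, adjusted p = 0.47) that was 0.12 without exposed pool 3.

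Of the other alpha isoforms tested, Pcdha1, Pcdha2, Pcdha3, Pcdha5, Pcdha6, Pcdha7, Pcdha9, Pcdha12 and ENSMUSG00000007440, Pcdha12 had the lowest adjusted p. It had 6.66, 20.5 and 12.0 CPM in the control and 4.29 and 7.41 CPM in the exposed libraries, with a log2 fold change of -1.16 ± 0.60 (SE, edgeR, adjusted p = 0.34). Exposed pool 3 lay above control pool 1, so the groups overlapped. Pcdha1 had 16.2, 10.2 and 8.66 CPM against 23.2 and 16.9 CPM, both above the controls, with a log2 fold change of 0.78 ± 0.41 (SE, edgeR, adjusted p = 0.35). The 9 isoforms had control means between 7.22 and 21.7 CPM. Pcdha4, Pcdha8 and ENSMUSG00000102206 were not tested and did not exceed 1.88 CPM in any library.

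The beta isoforms tested beside Pcdhb1 were Pcdhb4, Pcdhb7, Pcdhb9, Pcdhb14, Pcdhb15, Pcdhb16, Pcdhb17, Pcdhb18, Pcdhb19, Pcdhb20, Pcdhb21 and Pcdhb22. In 5 of the 13, Pcdhb4, Pcdhb17, Pcdhb18, Pcdhb20 and Pcdhb22, both exposed libraries lay below all controls, as they did in 19.6% of all genes tested. Pcdhb4 and Pcdhb22 had passed the filter through the controls alone, and 3 of the 10 isoforms that passed in both conditions lay below. Pcdhb17 had 33.6, 31.7 and 35.4 CPM in the control and 22.1 and 29.1 CPM in the exposed libraries, a log2 fold change of -0.39 ± 0.27 (SE, edgeR, adjusted p = 0.48). Pcdhb20 had 7.99, 23.8 and 10.7 CPM against 7.31 and 7.72 CPM (log2 fold change -0.91 ± 0.56, SE, edgeR, adjusted p = 0.42), so that control pool 1 was close to the exposed values. Without control pool 2 the log2 fold change was -0.30. For Pcdhb4 the counts were 206, 371 and 284 in the control and 0 and 129 in the exposed libraries. It was not called in the comparison of all 5 libraries (edgeR, adjusted p = 0.56) and was called lower without exposed pool 3 (adjusted p = 0.0841), which leaves the library without a count as the only exposed sample, assumed to vary like the controls. The beta isoforms not tested were Pcdhb2, Pcdhb3, Pcdhb5, Pcdhb6, Pcdhb8, Pcdhb10, Pcdhb11, Pcdhb12 and Pcdhb13.

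The gamma isoforms tested beside Pcdhgc3 were Pcdhga1, Pcdhga3, Pcdhga4, Pcdhga5, Pcdhga6, Pcdhga7, Pcdhga8, Pcdhga11, Pcdhga12, Pcdhgb1, Pcdhgb2, Pcdhgb4, Pcdhgb5, Pcdhgb6 and Pcdhgb7. Pcdhga3 had the lowest adjusted p of these, with 16.5, 22.1 and 19.5 CPM in the control and 8.75 and 14.3 CPM in the exposed libraries, both below the controls. Its log2 fold change was -0.75 ± 0.38 (SE, edgeR, adjusted p = 0.34). Pcdhgb6 had 21.8, 19.2 and 11.6 CPM in the control and 21.2 and 15.1 CPM in the exposed libraries, within the control range. Pcdhga11 had 6.80, 15.8 and 14.5 CPM against 15.1 and 15.5 CPM, and its unshared part is short, and per kilobase of it the control mean was 9.85 ± 3.88 CPM (SD, n = 3), the highest mean of the gamma isoforms on this length but not on all exon bases, and not the highest in control pool 1. Pcdhga2 and Pcdhga9 were detected but not tested, and Pcdhgb8 had at most 2 counts.

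Genes that act on or with protocadherins were followed as 4 lists. Of 23 regulators of promoter choice, CTCF, cohesin, DNA methylation and enhancer factors, 22 were tested, with a median log2 fold change of -0.07, and 1 was called by edgeR, in the lower direction. This was Ldb1, the LIM domain cofactor that bridges olfactory enhancers, with 101, 90.7 and 32.3 CPM in the control and 15.7 and 19.1 CPM in the exposed libraries, which lay below all controls (log2 fold change -2.10 ± 0.51, SE, edgeR, adjusted p = 0.0987). Of 9 proteases that shed and cleave cadherins, 8 were tested, with a median log2 fold change of 0.10, and 1 was called higher, Psen2, a catalytic subunit of gamma-secretase. It had 332, 284 and 356 CPM in the control and 529 and 486 CPM in the exposed libraries (log2 fold change 0.65 ± 0.15, SE, edgeR, adjusted p = 0.0774).

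Of 33 other cadherins, calsyntenins and catenins, 17 were tested, with a median log2 fold change of -0.10, and 1 was called higher, Ctnna1, the alpha-catenin that ties classical cadherins to actin. It had 239, 222 and 248 CPM in the control and 335 and 387 CPM in the exposed libraries (log2 fold change 0.61 ± 0.14, SE, edgeR, adjusted p = 0.0797). Of 20 cytoplasmic partners, among them the WAVE complex and the kinases Ptk2 and Fyn, 17 were tested, with a median log2 fold change of -0.04, and none was called by edgeR, with 2 at an unadjusted p under 0.05, or by DESeq2. The lowest adjusted p of that list was that of Taok2, a kinase that binds Pcdh8, at 0.22, with 15.5, 21.9 and 29.8 CPM in the control and 33.2 and 56.9 CPM in the exposed libraries. Over the 64 related genes tested, 30 log2 fold changes were positive and 34 negative, with a median of -0.06, beside -0.03 over all genes tested. By edgeR, 15 of the 64 had an unadjusted p under 0.05, beside 1922 of the 10036 genes tested. DESeq2 called 11 of the 64, beside 6.69% of all genes tested called higher and 7.12% lower. Ctnna1, Nipbl, Psen2, Setdb1 and Tet3 were called higher, and Aph1b, Aph1c, Cdh4, Clstn2, Ldb1 and Lhx2 lower. The calls of Ldb1, Psen2 and Ctnna1 were lost in many of the alternative fits, the replicate block among them, and at an adjusted p under 0.05.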

How the data were processed

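Total RNA of the sorted pools was amplified with the SMARTer chemistry, made into Nextera XT libraries and sequenced as single reads, per the labels. Per the labels and the submitters' processing notes, the authors mapped reads with STAR 2.7.0a on GRCm38 and counted them on exons with featureCounts 1.6.3, without strand, leaving out multi-mapping reads and reads on exons of several genes. The deposited values are these raw counts per gene, with no normalization or filter. Symbols came from GENCODE M21, on the same build.

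Counts were tested with edgeR 4.0.16 in R 4.3.3 (TMM, glmQLFit with robust estimation, glmQLFTest, condition as the only factor, 5 libraries, 42780403 to 49527380 counts each). A gene was tested if all libraries of either condition had more than 141 counts, a limit set where the distribution of log2 counts has its trough. Calls needed a Benjamini-Hochberg adjusted p under 0.1 over all 10036 genes and an absolute log2 fold change above 0.5. ERCC spike-ins, 0.249 to 0.631% of counts, were left out of the test. DESeq2 1.42.0 with apeglm 1.24.0, other scalings, other filters, a replicate block and the omission of each library were alternatives. Scripts were tested on simulated data. Intervals are exact binomial. The SE of an edgeR log2 fold change was derived as its absolute value divided by the square root of the quasi-likelihood F statistic. Named were all non-clustered genes, all clustered isoforms tested, the C-types, the highest isoform of each cluster in each library, the members with the longest and shortest unshared exons of each cluster and, of related lists, called genes or the lowest adjusted p. The members and lists were chosen with earlier results of these data known. Protein sequences were not compared here. One basal cell marker is not reported here. The labels describe pools of animals on consecutive days, so p-values measure the spread between these pools.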

Additional observations from a re-analysis of the deposited data

How the results depend on the processing

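Pcdh10 was called in all fits. The number of protocadherins called, 1 in the main comparison, was 2 with DESeq2, 3 with a limit of 10 counts, 3 with no limit beyond 1 count, and 1 to 3 when a library was left out (Pcdhb2 and Pcdhb8 without control pool 2, Pcdh19 without control pool 3 and Pcdhb4 without exposed pool 3 were the added calls). The number of related genes called, 3 in the main comparison, was 11 with DESeq2, 1 with ERCC scaling, 0 at an adjusted p under 0.05 (edgeR, 15 at an unadjusted p under 0.05), 0 with filterByExpr (15), 1 with no limit beyond 1 count and 1 with library totals as the only scaling, an alternative chosen after seeing the data. It was 0 to 6 when a library was left out, 0 without control pool 2 or exposed pool 1 and 6 without control pool 3. With the pool number as a replicate block, 1 protocadherin (Pcdh10, log2 fold change 4.49, adjusted p = 0.095) and 0 related genes (16 at an unadjusted p under 0.05) were called. The groups share only the numbers 1 and 3, which the labels do not tie to a day, so the numbers were not taken as pairs. The deviations of same-numbered libraries correlated at 0.05 and -0.08 over the genes tested. With 2 exposed libraries the deviations of one mirror those of the other, so these correlations cannot decide on pairing. These counts stand beside calls over all genes of 343 higher and 186 lower in the main comparison, 671 and 715 with DESeq2, 93 and 48 with ERCC scaling, 11 and 1 with the block, 160 and 64 without control pool 2, 352 and 436 without control pool 3 and 93 and 19 without exposed pool 1. The calls over all genes were 343 higher and 174 lower with a limit of 10 counts, and 290 and 131 with no limit beyond 1 count. With a library left out, the log2 fold change of Pcdh8 ranged from -0.14 (without exposed pool 3) to 1.49 (without exposed pool 1) and that of Pcdh7 from -0.27 to 0.63 for the same pools. The cause was not tested, beyond the smaller number of samples or genes that an alternative itself sets. Of the other log2 fold changes printed, none changed sign, but sizes moved: over the omitted libraries Pcdhac1 ranged from -6.80 to -0.76, Pcdhac2 from 0.12 to 1.08 and Pcdhb20 from -1.19 to -0.30. Levels per kilobase over all exon bases instead of unshared ones lowered Pcdha2 from 8.68 to 4.05 and Pcdhga11 from 9.85 to 2.60 in the control libraries. Low counts kept 18 of 58 clustered and 5 of 12 non-clustered genes out of the test.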
